A study of Mus musculus with 9 samples.

Results

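Nfe2l2, Keap1 and 8 antioxidant genes that the factor Nrf2 is known to control were followed through serial culture of mouse embryonic lung cells. The genes are Nfe2l2, Keap1, Nqo1, Hmox1, Gclc, Gclm, Txnrd1, Srxn1, Slc7a11 and Gsta4. They were chosen by name, and each of the 10 was found once among the 27179 genes of the count table. The series followed the transcripts of such cells while they were passaged as pneumospheres, spheres grown in low-attachment plates. Lungs were taken from C57/B6 embryos at E11.5, and RNA was sequenced from 3 libraries each on day 3, day 7 and day 10 of culture. There is no untreated or freshly isolated group among the libraries analysed, so every comparison is of a later with an earlier day. All 9 libraries came from cells kept at 5% oxygen and 10% carbon dioxide. The medium of every library held 20 ng/ml bFGF, 10 ng/ml EGF, heparin, a supplement of insulin, transferrin and selenium (ITS), and 2% B27, a supplement that itself contains antioxidants. Cells were split on day 3 and day 7 and plated again at 50000 per ml.

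Nrf2, the protein of Nfe2l2, is a transcription factor that is made all the time and destroyed almost as fast. Keap1 binds it in the cytoplasm and hands it to the ubiquitin ligase built on Cul3. When electrophiles or oxidants modify cysteines of Keap1, Nrf2 escapes, pairs with a small Maf protein and binds antioxidant response elements beside its targets. The level of Nrf2 protein is therefore set largely after transcription, and RNA counts do not measure it.

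The promoter sequences of 5 of the genes show which short motifs lie near their start sites. RefSeq promoter windows (build GRCm38.p6) run from 250 bases before to 50 bases after the start site, 5′ to 3′ on the gene's own strand. Of the 10 genes, 7 had a window: Nfe2l2, Keap1, Nqo1, Gclm, Txnrd1, Srxn1 and Slc7a11. Capitals mark matches on either strand to TGACNNNGC (the core of the antioxidant response element, N being any base), to TGANTCAGC (the fuller site of Nrf2 with a small Maf, which contains an AP-1 site) or to TGATGCAA (the composite element of ATF4 with a C/EBP factor). A run with C at the N of the second motif would match both of the first 2.
Nfe2l2: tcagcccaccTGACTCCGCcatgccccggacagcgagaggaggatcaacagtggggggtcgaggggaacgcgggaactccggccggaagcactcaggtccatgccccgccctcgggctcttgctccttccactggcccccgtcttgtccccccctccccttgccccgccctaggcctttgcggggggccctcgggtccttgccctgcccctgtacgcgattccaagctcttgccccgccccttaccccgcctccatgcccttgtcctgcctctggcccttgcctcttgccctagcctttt
Srxn1: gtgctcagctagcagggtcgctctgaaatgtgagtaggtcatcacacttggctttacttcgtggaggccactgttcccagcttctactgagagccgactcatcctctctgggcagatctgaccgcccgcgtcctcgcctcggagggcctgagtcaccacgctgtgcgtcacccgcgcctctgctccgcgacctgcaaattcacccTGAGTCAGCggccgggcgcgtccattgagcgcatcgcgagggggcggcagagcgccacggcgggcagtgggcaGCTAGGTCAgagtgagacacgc
Txnrd1: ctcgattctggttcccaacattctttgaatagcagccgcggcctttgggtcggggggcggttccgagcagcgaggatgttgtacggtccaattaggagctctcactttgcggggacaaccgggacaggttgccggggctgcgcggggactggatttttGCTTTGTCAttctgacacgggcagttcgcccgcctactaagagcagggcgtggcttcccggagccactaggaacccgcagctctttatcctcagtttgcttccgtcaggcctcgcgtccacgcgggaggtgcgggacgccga
Gclm: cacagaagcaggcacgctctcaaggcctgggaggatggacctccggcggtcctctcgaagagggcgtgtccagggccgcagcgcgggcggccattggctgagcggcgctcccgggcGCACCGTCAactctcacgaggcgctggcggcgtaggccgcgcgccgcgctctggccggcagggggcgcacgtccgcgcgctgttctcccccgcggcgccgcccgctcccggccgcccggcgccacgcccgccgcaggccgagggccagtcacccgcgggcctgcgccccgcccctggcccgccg
Slc7a11: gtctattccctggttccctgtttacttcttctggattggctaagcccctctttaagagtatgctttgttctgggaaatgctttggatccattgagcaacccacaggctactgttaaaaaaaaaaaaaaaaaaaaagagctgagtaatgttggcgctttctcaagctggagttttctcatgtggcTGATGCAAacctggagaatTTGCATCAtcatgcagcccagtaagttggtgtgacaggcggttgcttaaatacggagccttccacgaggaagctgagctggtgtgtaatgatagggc
The windows lie at chr2:75704614-75704913 on the minus strand for Nfe2l2 and at chr2:152105274-152105573 on the plus strand for Srxn1. That of Txnrd1 is 1 of 3 listed for the gene and lies at chr10:82858956-82859255 on the plus strand. Those of Gclm and Slc7a11 lie at chr3:122245307-122245606 on the plus strand and at chr3:50443564-50443863 on the minus strand. The core TGACNNNGC was found in Nfe2l2, Srxn1, Txnrd1 and Gclm, 4 of the 7 genes, against 3781 of all 27025 genes with a window. The 7 genes have 9 windows, 3 of them of Txnrd1, and 12.4% of all 32851 windows hold the core. The fuller TGANTCAGC was found in Srxn1 alone among the 7, 45 bases before its start site, against 1.37% of all genes (1.19% of windows). Slc7a11 held TGATGCAA on both strands, 66 and 47 bases before its start site, against 1.03% of all genes with at least 1 match (0.895% of windows). These are matches of letters, not measured binding, and no match means only that the letters are not in the window.

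Library totals ran from 20716878 to 30466712 counts. Libraries of 1 day correlated at r = 0.979 to 0.993 on log2 CPM (CPM being counts relative to each library's total after TMM scaling) across genes. Those of different days correlated at r = 0.898 to 0.983, so the ranges overlap. One unnamed gene held 6.79% of the counts of day 3 replicate 2. Whether libraries of the same day came from separate cultures or litters is not labelled, so the p-values measure the spread between these samples, which may be technical. The cells had been enriched for epithelium by letting mesenchyme attach, yet epithelial markers were nearly absent. The 15 lung epithelium markers summed to 1.78 to 2.80 CPM on day 3, 1.33 to 2.35 on day 7 and 1.69 to 2.40 on day 10, and Nkx2-1, Foxa1 and Shh had no count on any day. The 12 mesenchyme markers summed to between 19140 and 20650 CPM on day 3, 33560 and 39720 on day 7, and 48680 and 54700 on day 10. All 12 were called higher on day 10 than on day 3, and their part in the values of the 10 genes was not tested.

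The 10 genes did not move as 1 group. On day 10 against day 3, Nfe2l2, Nqo1, Hmox1, Srxn1 and Gclm were higher, Txnrd1, Gclc and Gsta4 were lower, and Keap1 and Slc7a11 were not called. That is 5 higher and 3 lower, where edgeR called 29.5% of all 14940 tested genes higher and 27.2% lower (56.7% in all) at an adjusted p under 0.05. The median log2 change was 0.25 for the 10 genes and 0.0018 for all genes. Libraries of the 2 days did not overlap for 9 of the 10 genes, and for 64.4% of all tested genes. Gsta4 is counted as lower and as not overlapping, although it passed the low-count filter through day 3, where it was high. Beside a background of this size nothing is read from the number called, and the account rests on the size and direction of each gene. Without both day 3 replicate 2, which holds the unnamed gene, and day 10 replicate 3, where Hmox1 and Slc7a11 were far below the other day 10 libraries, 4 were higher and 3 lower, Gclm no longer being called (adjusted p = 0.0714).

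**Figure D1:**
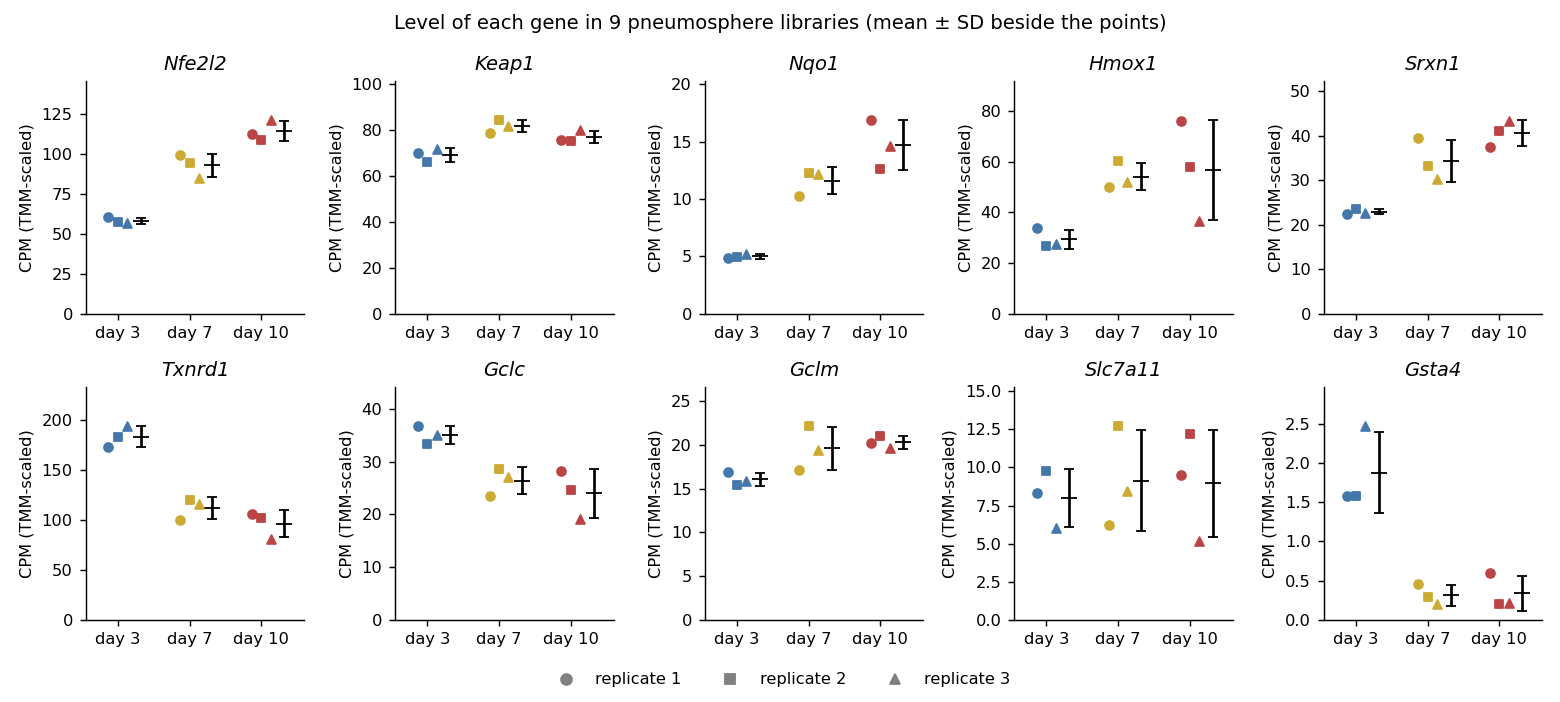
Level of each of the 10 genes in CPM (linear axes from 0) in the 3 libraries of day 3, day 7 and day 10. Points are single libraries with a marker for each replicate number, and the bar beside them is the mean ± SD (n = 3). All day 10 libraries lie above all day 3 libraries for Nfe2l2, and below them for Txnrd1.

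Nfe2l2 rose at each step. This gene (Entrez 18024, chromosome 2, 75675513 to 75704663, build GRCm38 as for all genes below) encodes Nrf2 itself. It had 60.5, 57.2 and 57.0 CPM in the day 3 libraries, 99.2, 94.4 and 85.0 CPM in those of day 7, and 113, 109 and 121 CPM in those of day 10. No library of 1 day overlapped any of another, and the order was day 3, day 7, day 10. The log2 change was 0.97 for day 10 against day 3 (SE 0.08, edgeR adjusted p = 5.2e-06) and 0.67 for day 7 against day 3 (SE 0.08, adjusted p = 0.000106). For day 10 against day 7 it was 0.30 (SE 0.08, adjusted p = 0.0386), a call that ended in 11 of 18 alternative fits. Among these were the fits without any 1 of the 3 day 3 libraries, day 7 replicate 2 or 3, or day 10 replicate 1 or 3, and library size alone, with an adjusted p of up to 0.123. In bulk libraries, more cells that carry a transcript and more of it in each cell cannot be told apart, here and for every gene below.

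Keap1, the cysteine-rich sensor that holds Nrf2 (Entrez 50868, chromosome 9, 21229730 to 21239332), moved by a smaller amount. It had 69.9, 65.9 and 71.5 CPM on day 3, 78.8, 84.3 and 81.9 on day 7, and 75.8, 75.3 and 79.8 on day 10. Every later library was above every day 3 library, by a small margin. The log2 change was 0.24 for day 7 against day 3 (SE 0.06, adjusted p = 0.0126). That call ended without day 3 replicate 2 (adjusted p = 0.0562) and with library size alone (adjusted p = 0.0839). For day 10 against day 3 the log2 change was 0.16 (SE 0.06, adjusted p = 0.0594), and for day 10 against day 7 it was -0.09 (adjusted p = 0.454). Inside each library, where no scaling enters, the log2 ratio of Nfe2l2 to Keap1 counts averaged -0.25 ± 0.07 on day 3, 0.18 ± 0.14 on day 7 and 0.57 ± 0.04 on day 10 (SD, n = 3). The ratio was 1.76-fold higher on day 10 than on day 3, with no overlap between any days. This ratio and those given below were chosen after values were seen, and no share over other pairs of genes was computed. Their lack of overlap is therefore a description.

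Nqo1 had the largest fold rise of the 10. It encodes a quinone reductase that uses NADH or NADPH and is a standard readout of Nrf2 (Entrez 18104, chromosome 8, 107388225 to 107403205). Its levels were 4.81, 4.97 and 5.25 CPM on day 3, 10.2, 12.3 and 12.2 on day 7, and 16.9, 12.6 and 14.6 on day 10. Day 3 libraries were close together and far below all others, and each day 10 library was above each day 7 library. The level was 2.93-fold higher on day 10 than on day 3 (log2 change 1.55, SE 0.14, edgeR adjusted p = 1.32e-05) and 2.31-fold higher on day 7 than on day 3 (1.21, SE 0.14, adjusted p = 0.00013). For day 10 against day 7 the log2 change was 0.34 (SE 0.14, adjusted p = 0.142).

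Hmox1 encodes heme oxygenase-1, which opens heme to biliverdin, carbon monoxide and iron (Entrez 15368, chromosome 8, 75093618 to 75100593). The gene is repressed by Bach1 and activated by Nrf2. It had 33.7, 26.8 and 27.5 CPM on day 3, 50.0, 60.1 and 51.8 on day 7, and 75.9, 57.8 and 36.6 on day 10. All later libraries were above all day 3 libraries, but those of day 10 spread widely, with replicate 3 close to day 3. The log2 change was 0.95 for day 10 against day 3 (SE 0.23, adjusted p = 0.00559) and 0.88 for day 7 against day 3 (SE 0.23, adjusted p = 0.0121). For day 10 against day 3 it was 1.19 without day 10 replicate 3 (SE 0.14) and 0.69 without day 10 replicate 1 (SE 0.19), both called. Day 10 stood at 56.7 ± 19.7 and day 7 at 54.0 ± 5.39 CPM (SD, n = 3 each, adjusted p = 0.886).

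Markers of cells that carry much heme or much Hmox1 were measured in the same libraries. The 12 erythroid markers summed to between 1090 and 1286 CPM on day 3, 7.27 and 8.39 on day 7, and 1.49 and 3.11 on day 10, when Hba-a1, Hbb-bs, Hbb-b1 and Slc4a1 had no count. The 14 macrophage and leukocyte markers, of cells in which Hmox1 is abundant, summed to between 12.5 and 23.7 CPM on day 3, 8.36 and 17.4 on day 7, and 7.45 and 11.6 on day 10, with C1qa and C1qc at 0 on day 10. Of their 7 tested members, none was called higher on day 10 than on day 3 and 1 was called lower. The part of either cell type in the Hmox1 values was not tested.

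The thioredoxin branch split. Txnrd1, the cytosolic thioredoxin reductase, fell, while Srxn1 rose. Txnrd1 (Entrez 50493, chromosome 10, 82833951 to 82897724) had 174, 183 and 194 CPM on day 3, 99.5, 120 and 116 on day 7, and 106, 102 and 80.6 on day 10. Every day 3 library was above every later one, and days 7 and 10 overlapped. The level on day 10 was 0.525 times that on day 3 (log2 change -0.93, SE 0.11, edgeR adjusted p = 7.91e-05), and that on day 7 was 0.61 times that on day 3 (-0.71, SE 0.11, adjusted p = 0.000737). Day 10 against day 7 gave -0.22 (SE 0.11, adjusted p = 0.266). Eid3 and Gm38560 overlap the gene model, and reads in the overlap may belong to either.

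Srxn1 encodes sulfiredoxin, which repairs peroxiredoxins whose cysteine has been overoxidised (Entrez 76650, chromosome 2, 152105524 to 152111376). It is the gene whose printed promoter holds the fuller TGANTCAGC site. Its levels were 22.5, 23.5 and 22.6 CPM on day 3, 39.6, 33.2 and 30.2 on day 7, and 37.4, 41.1 and 43.3 on day 10. Later libraries were all above those of day 3, and day 7 overlapped day 10. The log2 change was 0.83 for day 10 against day 3 (SE 0.11, adjusted p = 0.000111), 0.59 for day 7 against day 3 (SE 0.11, adjusted p = 0.00166) and 0.24 for day 10 against day 7 (SE 0.10, adjusted p = 0.179). Txnrd1 and Srxn1 both carry a TGACNNNGC match in the windows shown and went opposite ways.

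The 2 subunits of glutamate-cysteine ligase, the enzyme that makes the first and limiting bond of glutathione, also went opposite ways. Gclc, the catalytic subunit (Entrez 14629, chromosome 9, 77754535 to 77794489), had 36.8, 33.4 and 35.0 CPM on day 3, 23.5, 28.5 and 27.1 on day 7, and 28.2, 24.6 and 19.1 on day 10. All later libraries were below all day 3 libraries. Its log2 change was -0.55 for day 10 against day 3 (SE 0.13, adjusted p = 0.00574) and -0.41 for day 7 against day 3 (SE 0.13, adjusted p = 0.0323). The call for day 7 ended without any 1 of the 3 day 3 libraries or day 7 replicate 1 or 3, with an adjusted p of up to 0.117.

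Gclm, the modifier subunit that makes the ligase more efficient (Entrez 14630, chromosome 3, 122245487 to 122267215), had 16.9, 15.4 and 15.9 CPM on day 3, 17.2, 22.2 and 19.5 on day 7, and 20.2, 21.0 and 19.6 on day 10. Its later libraries were all above those of day 3, the closest pair being 17.2 CPM on day 7 and 16.9 CPM on day 3. The log2 change was 0.34 for day 10 against day 3 (SE 0.11, adjusted p = 0.0206), a call that ended without day 3 replicate 2 or 3, without day 10 replicate 2 and with library size alone (adjusted p of up to 0.111). For day 7 against day 3 it was 0.28 (SE 0.11, adjusted p = 0.0531). Inside each library the log2 ratio of Gclm to Gclc counts was -1.12 ± 0.01 on day 3, -0.43 ± 0.06 on day 7 and -0.22 ± 0.26 on day 10 (SD, n = 3). The ratio was 1.87-fold higher on day 10 than on day 3, and the libraries of these days did not overlap. Gm46822 and Gm6061 overlap the span of Gclm in the annotation.

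**Figure D2:**
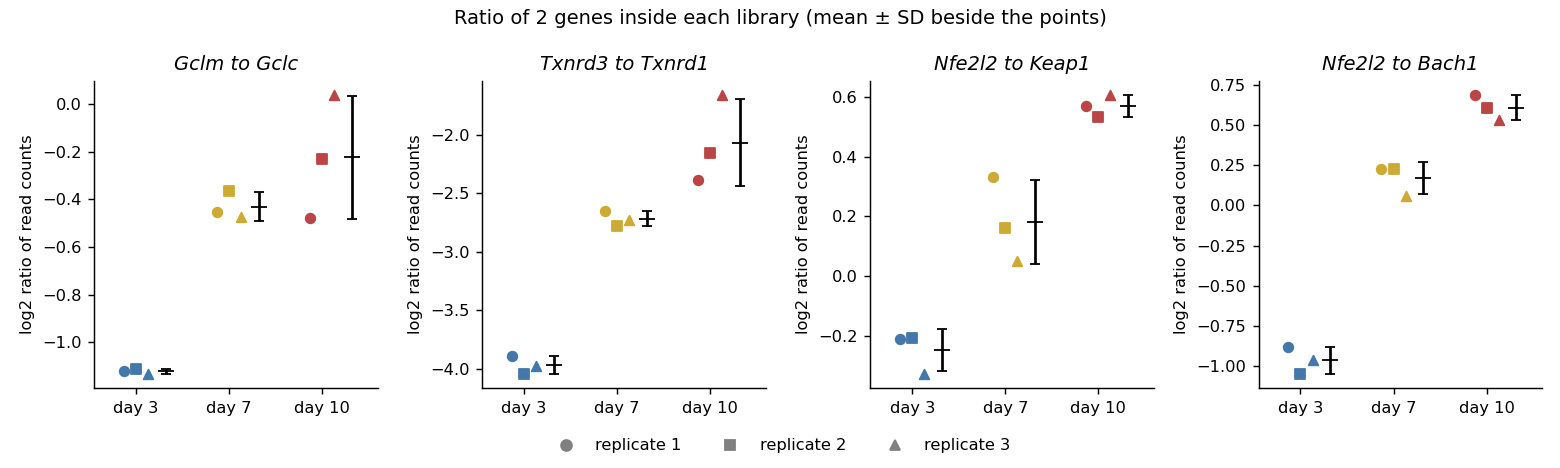
Log2 ratio of the read counts of 2 genes inside each library on day 3, day 7 and day 10, with the mean ± SD beside the points (n = 3). Only the change between days can be read, since counts are not per length. All 4 ratios are higher in every day 10 library than in any day 3 library. The pairs of genes were chosen after values were seen, so this is a description and no support.

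Slc7a11 did not follow either group. It encodes the transport chain of the cystine and glutamate exchanger, which brings in the cysteine for glutathione, and is controlled by ATF4 as well as by Nrf2 (Entrez 26570, chromosome 3, 50364936 to 50499087). Its levels were 8.29, 9.74 and 6.00 CPM on day 3, 6.22, 12.7 and 8.47 on day 7, and 9.52, 12.2 and 5.19 on day 10. The 3 days overlapped throughout, and the lowest value of all was in day 10 replicate 3. The log2 change was 0.16 for day 10 against day 3 (SE 0.35, adjusted p = 0.721) and 0.18 for day 7 against day 3 (SE 0.34, adjusted p = 0.7). With this spread a difference of that size was not detectable, which does not show that the level was the same.

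Gsta4, a glutathione transferase that clears 4-hydroxynonenal, a product of lipid peroxidation, had the fewest counts of the 10 (Entrez 14860, chromosome 9, 78191966 to 78209349). It had 1.58, 1.58 and 2.47 CPM on day 3, 0.461, 0.288 and 0.195 on day 7, and 0.595, 0.2 and 0.212 on day 10. These rest on 135 counts in the 3 libraries of day 3, 26 on day 7 and 23 on day 10. Each later library was far below each day 3 library. Its log2 change was -2.53 for day 10 against day 3 (SE 0.45, adjusted p = 0.000858; -3.15 without day 10 replicate 1) and -2.53 for day 7 against day 3 (SE 0.44, adjusted p = 0.00131). The other 9 genes passed the filter on low counts in all 3 libraries of every day. Gsta4 passed it through day 3, with 1 library each of days 7 and 10 above the cutoff of 0.395 CPM, and so was tested because it was high on day 3. The alpha-class relatives Gsta1 and Gsta2 had no count, and Gsta3 had at most 0.197 CPM. The 9 neural markers summed to between 157 and 209 CPM on day 3, 24.8 and 33.4 on day 7, and 15.7 and 20.1 on day 10, and their part in the Gsta4 values, like that of the erythroid markers, was not tested.

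**Figure D3:**
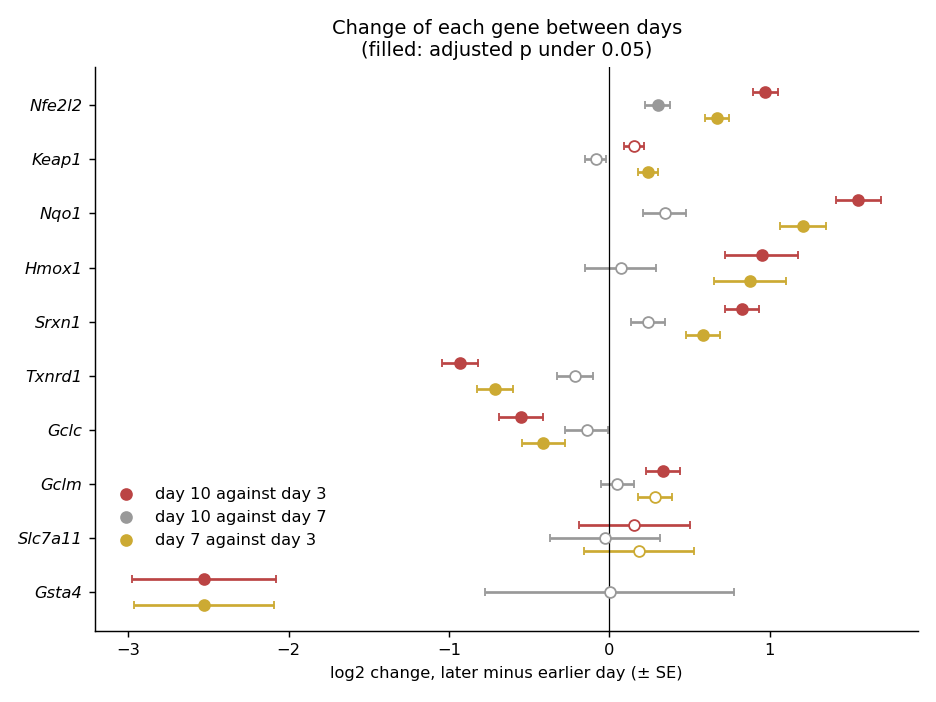
Log2 change of each of the 10 genes, later minus earlier day, with its standard error (bars) for day 10 against day 3, day 10 against day 7 and day 7 against day 3. Filled points have an edgeR adjusted p under 0.05: Nfe2l2 is filled in all 3 comparisons, and for day 10 against day 7 it is the only filled gene.

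Like all tested genes, the 10 genes were called more often in the first step than in the second. For day 7 against day 3, 5 of the 10 genes were higher (Nfe2l2, Keap1, Nqo1, Hmox1 and Srxn1) and 3 lower (Gclc, Txnrd1 and Gsta4), with 22.8% of all tested genes called higher and 19.0% lower (41.8% in all). Libraries of those days did not overlap for 9 of the 10 genes, and for 60.0% of all tested genes. Gsta4 is in both counts here too, with the same limit from the low-count filter. For day 10 against day 7, Nfe2l2 alone was called, higher, and none was called lower, at a background of 8.51% of all genes (4.41% higher and 4.1% lower). That background of 1271 genes was 304 without day 7 replicate 2, 667 without day 7 replicate 3, 780 without day 3 replicate 1, 807 without day 3 replicate 2 and 829 without day 7 replicate 1, and 290 with only those days fitted. Libraries of days 10 and 7 did not overlap for 2 of the 10, Nfe2l2 and Nqo1, and for 26.0% of all genes. At an unadjusted p under 0.05 in that comparison stood Nfe2l2, Nqo1 and Srxn1, all higher, beside 25.4% of all genes in either direction, and DESeq2 called Nfe2l2 alone. The balance of all calls in that step turned with the scaling, with 659 higher and 612 lower in the fit used here and 437 higher and 675 lower with library size alone. A test for any difference among the 3 days called 9 of the 10 genes, all but Slc7a11, and 53.5% of all genes. Comparisons of days 7 and 10 with day 3 share the day 3 libraries.

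Per length of exon the order of the genes differed between days. Levels were divided by the summed length of all annotated exons (GENCODE M21), which can understate a gene with long exons that these cells rarely use. On day 3, Txnrd1 stood highest at 25.9 ± 1.47 CPM per kilobase, ahead of Hmox1 (16.8 ± 2.18), Nfe2l2 (15.3 ± 0.52) and Keap1 (14.7 ± 0.615). Of these neighbours, Hmox1 overlapped Nfe2l2, and Nfe2l2 overlapped Keap1. Below them on day 3 came Gclc (9.31 ± 0.447), Srxn1 (8.11 ± 0.197), Nqo1 (3.23 ± 0.141), Gclm (2.56 ± 0.12), Gsta4 (1.48 ± 0.406) and Slc7a11 (0.575 ± 0.136), with no overlap between neighbours. On day 7, Hmox1 (30.8 ± 3.08) and Nfe2l2 (24.5 ± 1.91) led, and Keap1 overlapped Txnrd1, as did Nqo1 and Gclc. On day 10 the order was Hmox1 (32.4 ± 11.3), Nfe2l2 (30.1 ± 1.68), Keap1 (16.4 ± 0.52), Srxn1 (14.4 ± 1.05), Txnrd1 (13.6 ± 1.96) and Nqo1 (9.47 ± 1.39). Hmox1 overlapped Nfe2l2 there, and Srxn1 overlapped Txnrd1, while Gclc, Gclm, Slc7a11 and Gsta4 were lower still and the last pair overlapped.

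**Figure D4:**
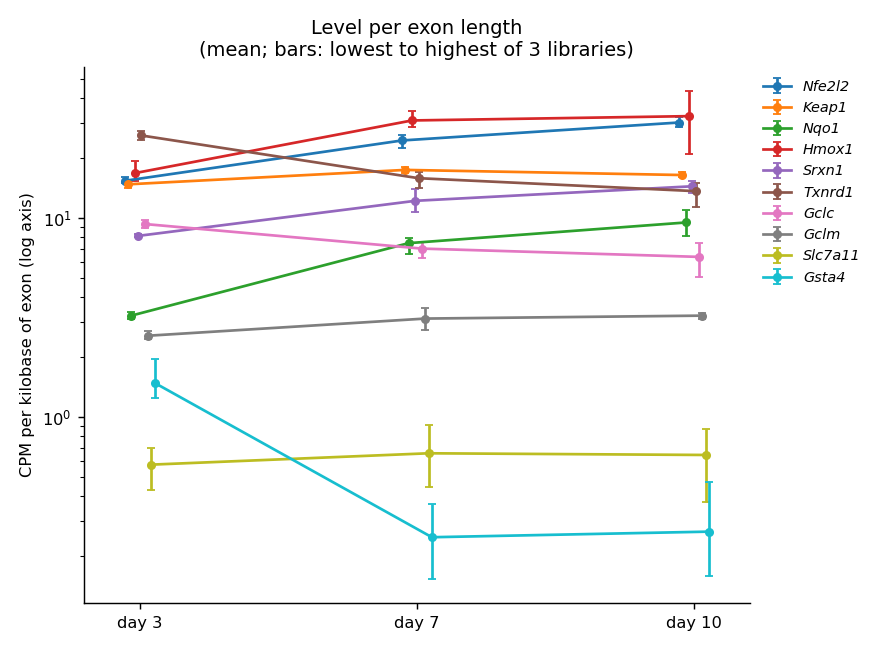
Level of the 10 genes in CPM per kilobase of exon (log axis) on day 3, day 7 and day 10. Points are means of 3 libraries and bars run from the lowest to the highest library. Txnrd1 is highest on day 3, while Hmox1 and Nfe2l2 have the highest means on day 10.

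Partners and rivals of Nrf2 moved in both directions. Of 15 such genes, all tested, 3 rose and 7 fell on day 10 against day 3, beside 29.5% of all tested genes higher and 27.2% lower, with a median log2 change of -0.09. Those shares of all genes and the median of 0.0018 over all genes stand beside every list count below, and no test compared a list with other genes or higher with lower calls. In this list and those that follow, a gene that passed the low-count filter only through its higher day had to differ, so the counts are a description. Of the 3 small Maf factors, which Nrf2 needs to bind DNA, 2 were higher: Mafk stood at 11.0 ± 0.945 CPM on day 10 against 5.76 ± 0.623 on day 3 (adjusted p = 0.000523), and Mafg at 42.7 ± 4.04 CPM on day 10 against 31.6 ± 1.39 on day 3 (adjusted p = 0.00486). Maff had 15.2 ± 8.09 CPM on day 10 and 11.8 ± 0.256 on day 3 (adjusted p = 0.328), and was higher on day 7 (25.0 ± 5.15 CPM, log2 change 1.08, adjusted p = 0.0198). Nfe2l1, which encodes the related factor Nrf1, had a log2 change of 0.51 (SE 0.06, adjusted p = 7.33e-05).

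The repressors that compete for the same elements fell. Bach1, a heme-binding repressor of Hmox1, stood at 75.1 ± 7.64 CPM on day 10 against 114 ± 4.18 on day 3 (log2 change -0.60, SE 0.08, edgeR adjusted p = 0.000132), and Bach2 at 10.2 ± 1.10 CPM on day 10 against 19.2 ± 1.67 on day 3 (-0.91, SE 0.12, adjusted p = 0.000117). The log2 ratio of Nfe2l2 to Bach1 counts inside a library averaged -0.97 ± 0.09 on day 3, 0.17 ± 0.10 on day 7 and 0.61 ± 0.08 on day 10, with no overlap between days. That ratio was 2.98-fold higher on day 10 than on day 3. Parts of the machinery that degrades Nrf2 were also lower. Cul3, the scaffold of the Keap1 ligase, changed by -0.30 (SE 0.08, adjusted p = 0.00682) and Gsk3b, a kinase that marks Nrf2 for another ligase, by -0.46 (SE 0.08, adjusted p = 0.000967). Their partners Rbx1 (-0.09, adjusted p = 0.358) and Btrc (0.10, adjusted p = 0.298) were not called. Dpp3 and Pgam5, which bind Keap1, changed by -0.50 (adjusted p = 0.000483) and -0.52 (adjusted p = 0.00195). Sqstm1, an autophagy receptor that sequesters Keap1, had 298 ± 8.60 CPM on day 10 and 263 ± 16.5 on day 3 (adjusted p = 0.078). Nfe2, an erythroid relative of Nfe2l2, had 0.104 ± 0.0479 CPM on day 10 against 0.672 ± 0.0555 on day 3. These rest on 49 counts on day 3 and 8 on day 10. Only the day 3 libraries of Nfe2 were above the low-count cutoff, so it was tested because it was high on day 3. The part of erythroid cells in the Nfe2 values was not tested. Nfe2l3 had 1.02 ± 0.296 CPM on day 10 and 0.435 ± 0.325 on day 3 (adjusted p = 0.0535).

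Of 18 tested genes of glutathione synthesis and use (20 listed), 10 were higher and 2 lower on day 10 against day 3 (all genes 29.5% and 27.2%), with a median log2 change of 0.47. Ggt5 and Ggt7, of the gamma-glutamyl transferase family, rose by 2.45 (SE 0.27, adjusted p = 5.77e-05) and 1.59 (SE 0.10, adjusted p = 1.5e-06). Gpx7, a peroxidase of the endoplasmic reticulum, reached 79.4 ± 9.64 CPM on day 10 against 18.1 ± 2.12 on day 3. Gpx3, a secreted peroxidase, fell to 9.79 ± 3.09 CPM on day 10, against 28.3 ± 1.37 on day 3 (adjusted p = 6.7e-05). The other lower gene was Gsr, glutathione reductase (log2 change -0.65, SE 0.18, edgeR adjusted p = 0.01005). Among the glutathione transferases other than Gsta4, 11 of 17 tested genes rose and 1 fell (20 listed, median 0.44; all genes 29.5% and 27.2%). Gstm1 led the named ones with 53.4 ± 10.7 CPM on day 10 against 11.0 ± 1.01 on day 3 (log2 change 2.29, SE 0.17, adjusted p = 3.68e-06). Gstm2, Gstm4 and Gstp1 rose by 0.81, 0.65 and 0.44. Reads of the Gstm genes, and of Gstp1 with Gstp2, can be shared between near-identical copies, so the split between them is uncertain.

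In the thioredoxin and peroxiredoxin list 7 of 14 genes rose and 3 fell (median 0.25), beside 29.5% of all genes higher and 27.2% lower. Txnrd3, a thioredoxin reductase with a glutaredoxin domain, went against Txnrd1 and reached 22.9 ± 2.55 CPM on day 10 against 11.7 ± 0.611 on day 3 (log2 change 0.97, SE 0.11, edgeR adjusted p = 4.46e-05). The ratio of Txnrd3 to Txnrd1 counts was 3.73-fold higher on day 10 than on day 3, without overlap. Peroxiredoxins, which reduce peroxides through a reactive cysteine, divided. Prdx6, whose protein has a single catalytic cysteine, had a log2 change of -1.17 (SE 0.08, adjusted p = 1.69e-06), and Prdx5 rose by 0.74 (SE 0.09, adjusted p = 0.000102). Sesn2, a stress-induced regulator of mTORC1, rose by 0.78 (SE 0.16, adjusted p = 0.00246).

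Of 10 genes of NADPH supply, 1 was higher and 6 were lower (median -0.34), beside 29.5% of all genes higher and 27.2% lower. Tkt, the transketolase of the pentose phosphate pathway, had 178 ± 17.5 CPM on day 10 against 309 ± 12.5 on day 3 (adjusted p = 0.000122). Idh1 and Idh2, isocitrate dehydrogenases of cytosol and mitochondria, changed by -0.64 and -0.45. Me1, the cytosolic malic enzyme, rose by 0.65 (SE 0.17, adjusted p = 0.00707). Of 10 heme and iron genes, 4 were higher and 4 lower (median -0.25), beside the same shares of all genes. Blvrb, biliverdin reductase B, rose by 0.86 (SE 0.10, adjusted p = 4.93e-05) and Slc48a1, a heme transporter, by 1.21 (SE 0.20, adjusted p = 0.000542). Blvra, biliverdin reductase A, was lower (-0.38, SE 0.12, adjusted p = 0.0173). The transferrin receptor Tfrc (-1.10, SE 0.32, adjusted p = 0.0144) and the heme exporter Flvcr1 (-0.92, SE 0.14, adjusted p = 0.000406) fell. The part of erythroid cells in the values of this list was not tested.

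The 2 largest rises among the named genes stood in the list of other Nrf2 targets. In it 9 of 18 tested genes rose and 1 fell (20 listed, median 0.55), beside 29.5% of all genes higher and 27.2% lower. The list leaves out the 10 genes, of which 5 were higher and 3 lower, and all genes placed in the lists above. Its counts depend on how the lists were drawn and do not describe Nrf2 targets as a whole. Ephx1, the microsomal epoxide hydrolase, had 47.8 ± 9.73 CPM on day 10 against 3.06 ± 0.384 on day 3 (log2 change 3.96, SE 0.17, edgeR adjusted p = 1.44e-07). Cbr3, a carbonyl reductase, had 17.7 ± 3.17 CPM on day 10 against 1.12 ± 0.29 on day 3 (3.97, SE 0.23, adjusted p = 8.38e-07). Both were also higher on day 10 than on day 7, Ephx1 by 1.02 (SE 0.14, adjusted p = 0.0048) and Cbr3 by 1.13 (SE 0.19, adjusted p = 0.00997). Abcc1, an exporter of glutathione conjugates, rose by 1.25 and Ptgr1, a prostaglandin reductase, by 0.65. Cbr1, the close relative of Cbr3, had log2 changes of -0.01 for day 10 against day 3 and 0.00 for day 7 against day 3 (adjusted p = 0.91 and 0.975). Among superoxide and hydrogen peroxide enzymes 5 of 7 tested genes rose and 1 fell (10 listed, median 0.55), beside the same shares of all genes. Sod3, the extracellular superoxide dismutase, stood at 22.7 ± 9.56 CPM on day 10 against 1.66 ± 0.244 on day 3 (adjusted p = 6.96e-05). Nox4 and Cyba, which form a hydrogen peroxide producing oxidase of fibroblasts, rose by 0.97 and 0.55, and Cat, which encodes catalase, by 0.42. The mesenchyme markers given above also rose over these days, and their part in the list values was not tested.

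**Figure D5:**
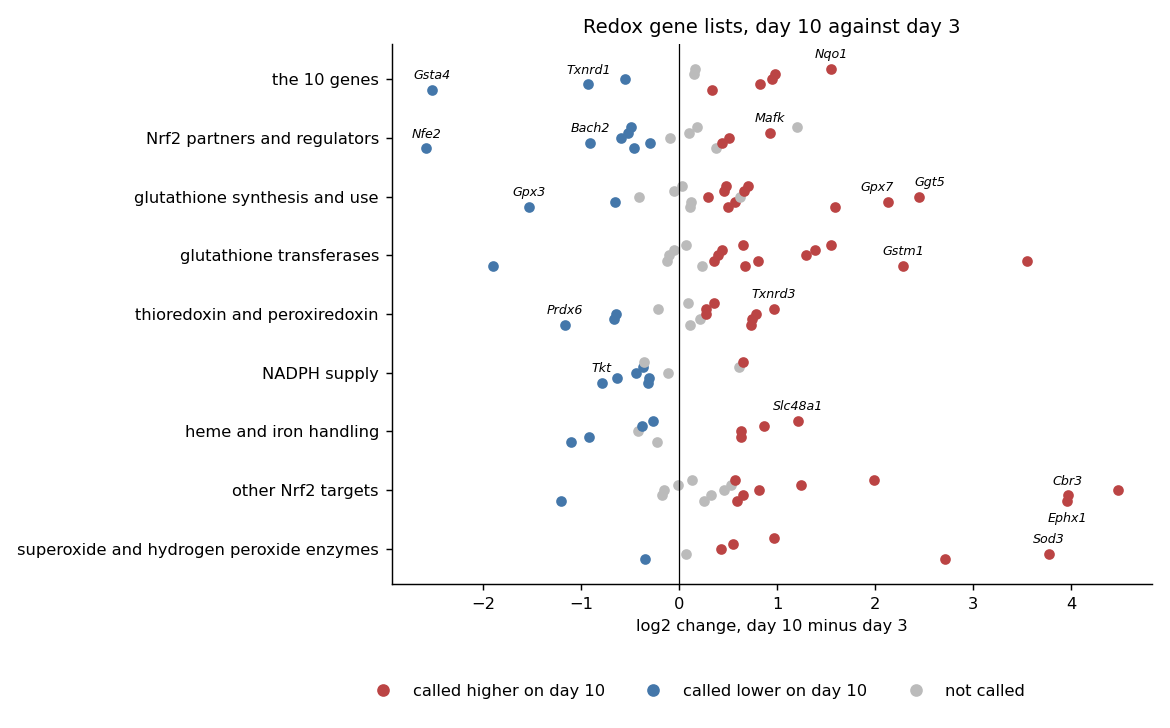
Log2 change for day 10 minus day 3 of the 10 genes and of each tested gene of 8 related lists, 1 point a gene, coloured by whether edgeR called it higher, lower or not. Points are spread vertically only for sight. Ephx1, Cbr3 and Sod3 lie farthest right among the labelled genes, and Gsta4 and Nfe2 farthest left. Gsta4 and Nfe2 passed the low-count filter through day 3, where they were high.

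Genes with the most similar course were sought, for the 9 genes called in any comparison, among other genes averaging 10 CPM or more, as a description over the same 9 libraries. Nfe2l2 was closest to Cd302, a membrane lectin (r = 0.997), and to Ctsb, the lysosomal protease cathepsin B (r = 0.996), which averaged 264, 385 and 477 CPM on days 3, 7 and 10. Nqo1 was closest to Capn2, a calpain subunit (r = 0.993), and Naa60, an acetyltransferase (r = 0.992). Txnrd1 was closest to Fubp1, a regulator of Myc, and Noc2l (both r = 0.994). Gclc was closest to Sms, spermine synthase (r = 0.993), and Polb, a repair polymerase (r = 0.991). The nearest genes of Hmox1 were Dad1 and Tmem256 (r = 0.977 and 0.975), of Srxn1 9530068E07Rik and Tmub2 (r = 0.992 and 0.991), and of Keap1 Mrpl24 and Cyth1 (r = 0.966 and 0.96). Those of Gclm were Trak2 and Bag1 (r = 0.981 and 0.96), and those of Gsta4 Rbm4b and Tmem132a (r = 0.986 and 0.972). Among the 10 genes, Nfe2l2 and Srxn1 were closest (r = 0.979) and Nfe2l2 and Txnrd1 farthest apart (r = -0.973). All of these values come from the same 9 libraries, and genes that only differ between day 3 and later give a high r.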

How the data were processed

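Counts per gene were deposited by the authors as whole numbers without normalisation. The submitters' processing notes name featureCounts and mm10. The aligner, annotation, strand setting and treatment of multiply mapped reads were not given in the sources used here. Each of the 9 columns matched 1 sample by its label. Gene IDs (Entrez) were named from RefSeq for 25275 of 27179 genes and from GENCODE M21 for 18. Counting error alone limits a count of 0 to 3 counts, 0.0985 to 0.145 CPM a library, and reads are not independent molecules.

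Genes kept by filterByExpr (14940) were scaled by TMM and tested with edgeR 4.0.16 in R 4.3.3 (quasi-likelihood, robust) in 1 fit of all 9 libraries. Each pair of days was tested, with Benjamini-Hochberg adjustment over all tested genes and calls at an adjusted p under 0.05. Standard errors were derived from the log2 change and its F statistic. CPM are means ± SD over 3 libraries. Alternatives were other scalings and filters, DESeq2 1.42.0, fewer libraries and the replicate number as a block.

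The members, lists and tests were chosen with earlier results of these data known. Named outside the 10 genes are up to 4 called genes a list with the largest change for day 10 against day 3, 10 CPM or more on average in the higher day and no overlap between libraries, and every gene of the first list. Ratios inside libraries, the 3 promoter motifs, Blvra, Cbr1, Gsr, Gsta1, Gsta2 and Gsta3 were chosen after values were seen.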

Additional observations from a re-analysis of the deposited data

How the results depend on the processing

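Of 539 alternative values for the 10 genes, 513 stayed on the same side of the threshold, 23 lost the call, 3 gained it (all for Gclm, day 7 against day 3) and 0 reversed a called value. Nfe2l2, Nqo1, Hmox1, Srxn1 and Txnrd1 each stayed called in all 18 alternatives for day 7 and for day 10 against day 3. Gsta4 did so too, but passed the low-count filter through day 3, where it was high, so this is no further support. Gclc stayed called in all 18 for day 10 against day 3. The number of the 10 genes called higher for day 10 against day 7, 1 in the fit used, was 0 with library size alone, without a filter, with only the 2 days compared and with day 3 replicate 2 and day 10 replicate 3 both left out, and ranged from 0 to 1 over fits without 1 library. All genes called in that step numbered 1271, against 2114 with the DESeq2 Wald test, 290 with only the 2 days compared and 304 (without day 7 replicate 2) to 1548 (without day 10 replicate 3) when 1 library was left out. The cause was not tested. Same-numbered libraries of different days deviated together in some pairs (r = -0.07 to 0.43, median 0.11, 5 of 9 above 0.1), more than those of unlike number (r = -0.36 to 0.22, median -0.05, 2 of 18 above 0.1). The cut at 0.1 is arbitrary. Values were centred on the mean of each day, so high same-numbered pairs partly force low values in the others. The deposited columns run day 3, day 7 and day 10 in turn within each replicate number. The numbers were not taken to pair the libraries, and whether they do was not settled. With the replicate number as a block, none of 30 values changed its call, and 5 genes were higher and 3 lower for day 10 against day 3. Depth limits Gsta4, with 23 to 135 counts a day; its log2 change for day 10 against day 3 ran from -3.15 to -2.27, and day 10 against day 7 could not be fitted with those days alone.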

Other observations

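Slc7a11 varied between libraries of 1 day in step with Chac1 and Mthfd2, an observation made after the values were seen. Chac1 degrades glutathione, and Mthfd2 is a mitochondrial folate enzyme. Over the 9 libraries Slc7a11 correlated with Chac1 at r = 0.923 and with Mthfd2 at r = 0.858, the 2 highest of 118 genes of the redox lists. The next were Pgls (r = 0.625), Mgst2 (r = 0.561), Sesn2 (r = 0.552) and Slc3a2 (r = 0.516). A part of ATF4 in these values was not tested. Chac1 had 3.92, 4.26 and 3.35 CPM on day 3, 2.86, 7.49 and 4.96 on day 7, and 6.75, 9.69 and 1.41 on day 10. Mthfd2 had 73.5, 69.9 and 60.6 CPM on day 3, 66.8, 111 and 88.5 on day 7, and 101, 151 and 59.9 on day 10. In Slc7a11, Chac1 and Mthfd2 alike, replicate 2 was the highest library of days 7 and 10, replicate 1 the lowest of day 7 and replicate 3 the lowest of days 3 and 10. On day 3 replicate 2 was the highest for Slc7a11 and Chac1, and replicate 1 for Mthfd2. The correlations share libraries, depth and scaling and carry no test.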
